A study of Homo sapiens with 12 samples.

Results

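The nuclear-encoded genes of the respiratory chain were described in A549 cells by complex. They are the genes of the nuclear genome for subunits of NADH dehydrogenase (complex I), succinate dehydrogenase (complex II), the cytochrome bc1 complex (complex III), cytochrome c oxidase (complex IV) and ATP synthase (complex V). Members were taken by a symbol pattern that uses no measured value, although the gene family was picked with earlier results of these data known. The pattern takes the numbered NDUFA, NDUFB, NDUFC, NDUFS and NDUFV genes, SDHA to SDHD, symbols starting with UQCR or ATP5, and COX4 to COX8 followed by at most 1 letter and 1 digit, without numbered pseudogenes. COX4I1 and COX6B2 fit it, and COX7A2L does not. This gave 85 of the 58830 entries, and 79 of them reached a normalized count of 10 or more in 3 or more of the 12 libraries and were tested among 20456 genes. The 6 others, COX4I2, COX6A2, COX7B2, COX8C, ATP5L2 and the pseudogene ATP5J2LP, reached at most 4.55 in any library. Of the 79, ATP5S and ATP5SL carry ATP5 symbols but are not subunits of ATP synthase, which leaves 77 subunit genes. NDUFA4 was counted with complex IV, of which it is a subunit.

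A549 is a human lung adenocarcinoma line, and the labels give its edited derivative as a knockout of the site in SNAI1 that miR-22 targets. The groups were the edited line with TGFβ (10 ng/mL), the edited line untreated, wild type with TGFβ and wild type untreated, all sampled at day 5 with 3 libraries each, labelled as biological repeats. The labels name 1 edited line, so effects of editing and of deriving that line cannot be told apart. The p-values reflect how much these repeats varied, and in bulk RNA fewer cells of a type and less RNA per cell cannot be told apart.

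Complexes I and II pass electrons from NADH and succinate to ubiquinone, complex III passes them on to cytochrome c, and complex IV hands them to oxygen. Complexes I, III and IV pump protons, and complex V uses the proton gradient to make ATP. Complex II is encoded wholly in the nucleus, whereas the other complexes combine nuclear-encoded subunits with subunits encoded by the mitochondrial genome.

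Each library held between 84210775 and 111141708 recovered reads. The epithelial markers EPCAM, KRT8, KRT18, KRT19 and CDH1 had no library at 0, and all 5 fell with TGFβ in both lines. Their summed normalized count was 406708 to 469594 in the edited line with TGFβ, 556834 to 574504 in the edited line untreated, 391165 to 508317 in wild type with TGFβ and 534691 to 556900 in wild type untreated. Among fibroblast markers, 5 of 5 tested rose with TGFβ in both lines, and none of the 6 listed was at 0 in any library. Their sums were 1944 to 2317 in the edited line with TGFβ, 220 to 283 in the edited line untreated, 1408 to 1773 in wild type with TGFβ and 165 to 207 in wild type untreated. Endothelial marker sums were 35.5 to 63.7 in the edited line with TGFβ, 143 to 183 in the edited line untreated, 32.6 to 68.9 in wild type with TGFβ and 114 to 153 in wild type untreated, with KDR at 0 in 10 libraries. These sums join opposite changes, since PECAM1 fell in both lines while TEK rose in both, to 16.7, 44.1 and 34.1 in the edited line with TGFβ, against 2.06, 0 and 0 in the edited line untreated. Leukocyte marker sums were 46.3 to 61.4 in the edited line with TGFβ, 109 to 138 in the edited line untreated, 46.2 to 76.9 in wild type with TGFβ and 77.8 to 102 in wild type untreated, with CD3E at 0 in 11. The part of these markers in the results below was not tested.

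With TGFβ, many respiratory chain genes were lower in both lines and few were higher. In the edited line 48 of 79 members fell (60.8%) and 1 rose (1.27%), against 30.7% lower and 32.1% higher among all tested genes (limma on log2(value + 1), Benjamini-Hochberg adjusted p under 0.05). In wild type 35 members fell (44.3%) and 3 rose (3.8%), against 30.9% lower and 30.8% higher among all tested genes. The median log2 fold change of the members was -0.37 in the edited line and -0.20 in wild type, where the medians of all tested genes were 0.03 and 0.02.

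Most members are abundant, and abundant genes were called lower more often. Among members with a mean of at least 1000 normalized counts, a limit chosen after the values were seen, 44 of 68 (64.7%) fell in the edited line, against 40.9% of the 9313 tested genes at that level. In wild type 35 of 68 (51.5%) fell, against 43.9%, a share near that background. Only 1 of the 68 rose in each line (1.47%), against 36.1% of genes at that level in the edited line and 31.4% in wild type.

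**Figure D1:**
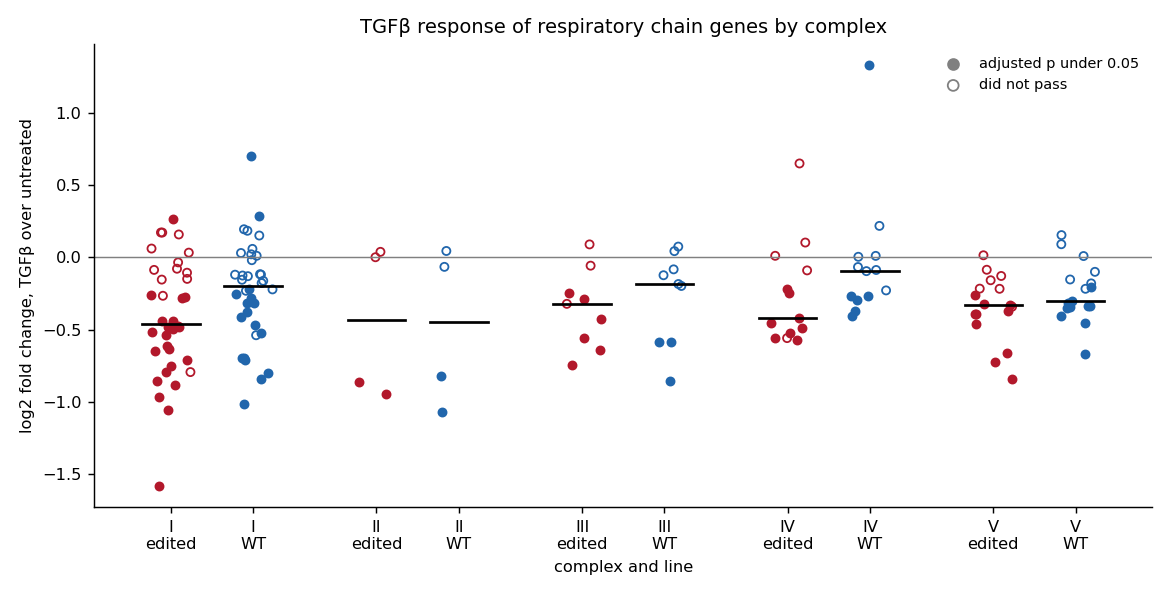
Log2 fold change with TGFβ over untreated on the log2(value + 1) scale for each of the tested members by complex. The edited line is in red and wild type in blue, and ATP5S and ATP5SL, which are not subunits, are drawn with complex V. Filled points passed an adjusted p of 0.05, open points did not, and black lines are medians: -0.46 in the edited line and -0.20 in wild type for complex I.

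There were 30 members that fell in both lines, which is 62.5% of those that fell in the edited line and 85.7% of those that fell in wild type. The log2 fold changes of the lines, which share no library, correlated at r = 0.608 across the 79 members, given as a description since genes are not independent. Neither the overlap nor the correlation was computed over all tested genes, so neither is read as particular to the members. Of all tested genes, 30.7% fell in the edited line and 30.9% in wild type. Another 18 members were called lower in the edited line and did not pass in wild type (NDUFV2, NDUFS7, NDUFS8, NDUFA3, NDUFA12, NDUFA13, NDUFB1, NDUFB7, NDUFB8, UQCRC1, UQCRH, UQCRQ, COX4I1, COX6A1, COX7B, ATP5D, ATP5J and ATP5O). A further 5 were called lower in wild type and did not pass in the edited line (NDUFA10, NDUFB10, ATP5H, ATP5A1 and ATP5SL). The 23 that passed in neither line were SDHA, SDHC, NDUFS3, NDUFV3, NDUFA1, NDUFA2, NDUFA7, NDUFB2, NDUFB3, NDUFB4, NDUFB11, NDUFC2, UQCRB, UQCRHL, UQCR11, COX6B1, COX6C, COX7A1, COX7C, ATP5E, ATP5G3, ATP5I and ATP5J2. A call in one line and not in the other is no test of a difference, and the tested differences are given further on.

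Complex II held both kinds of response. SDHB, the iron-sulfur subunit, and SDHD, a membrane anchor, fell to about the same extent in both lines. SDHA, the flavoprotein that oxidizes succinate, and SDHC, the other membrane anchor, did not pass. SDHA and SDHC were named after their values were seen.

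SDHB (GRCh38 chromosome 1, 17018722 to 17054170, minus strand) had 5576, 4637 and 5384 normalized counts in the edited line with TGFβ, against 10124, 10193 and 9605 in the edited line untreated. Wild type had 6102, 4973 and 4756 with TGFβ, against 9514, 9045 and 9305 untreated. Every treated library lay below every untreated library of its line. The log2 fold change was -0.94 ± 0.09 (SE) in the edited line (adjusted p = 6.82e-08) and -0.82 ± 0.09 in wild type (adjusted p = 3.79e-07).

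SDHD (GRCh38 chromosome 11, 112086773 to 112120013, plus strand) had 5026, 4438 and 5300 in the edited line with TGFβ, against 8488, 8877 and 9518 in the edited line untreated. The wild type libraries had 4925, 4486 and 4088 with TGFβ, against 10398, 8488 and 9478 untreated, again without overlap. The log2 fold change was -0.87 ± 0.09 in the edited line (adjusted p = 2.48e-07) and -1.07 ± 0.09 in wild type (adjusted p = 2.1e-08), with 22.2% of its transcript shared with exons of other genes on the same strand.

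SDHA (GRCh38 chromosome 5, 218241 to 256700, plus strand) had 13032, 11781 and 12435 in the edited line with TGFβ, against 12289, 11627 and 12330 in the edited line untreated. In wild type it had 13757, 12745 and 12207 with TGFβ, against 13962, 13018 and 13491 untreated. These groups overlapped, at log2 fold changes of 0.04 ± 0.06 in the edited line (adjusted p = 0.596) and -0.07 ± 0.06 in wild type (adjusted p = 0.363). SDHC had 14620, 13326 and 13884 in the edited line with TGFβ, against 13602, 14169 and 14001 in the edited line untreated. Wild type had 13551, 13138 and 12202 with TGFβ, against 12985, 12497 and 12201 untreated, with log2 fold changes of 0.00 ± 0.06 (adjusted p = 0.987) in the edited line and 0.04 ± 0.06 (adjusted p = 0.519) in wild type. With the GC trend removed both passed in wild type, SDHA at -0.18 and SDHC at 0.17. The sign of SDHA in the edited line and of SDHC in both lines changed under some alternatives, and whether those values passed is not given here.

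**Figure D2:**
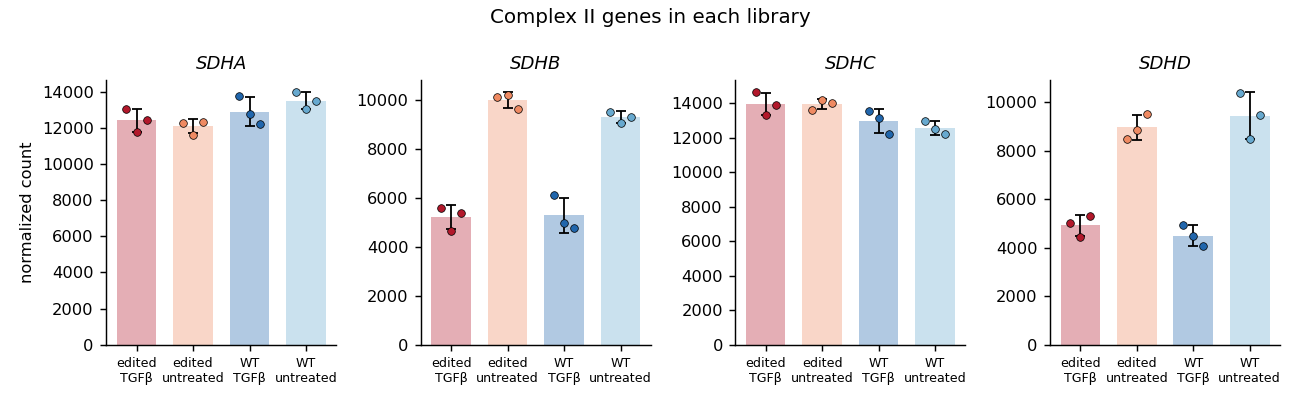
Normalized counts of the complex II genes in each library (points), with group means (bars) and SD (lines, n = 3), for the edited line with TGFβ, the edited line untreated, wild type with TGFβ and wild type untreated. SDHB and SDHD lie lower in the treated libraries of both lines, whereas treated and untreated libraries of SDHA and SDHC overlap.

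The promoters of SDHB, SDHD and SDHA are shown because these genes of 1 enzyme responded differently. No promoter window was matched for SDHC, so SDHA is the only gene shown that did not pass. The windows are RefSeq sequences on GRCh38.p14, from 250 bases before to 50 bases after the annotated start. SDHB is chr1:17053983-17054282 on the minus strand, SDHD is chr11:112086623-112086922 on the plus strand and SDHA is chr5:218070-218369 on the plus strand. Capitals mark matches, on either strand, to the NRF1 core GCGCATGC, the ETS core CCGGAAGT (the kind of site that GABPA binds) and the YY1 core AAGATGGC.
SDHB: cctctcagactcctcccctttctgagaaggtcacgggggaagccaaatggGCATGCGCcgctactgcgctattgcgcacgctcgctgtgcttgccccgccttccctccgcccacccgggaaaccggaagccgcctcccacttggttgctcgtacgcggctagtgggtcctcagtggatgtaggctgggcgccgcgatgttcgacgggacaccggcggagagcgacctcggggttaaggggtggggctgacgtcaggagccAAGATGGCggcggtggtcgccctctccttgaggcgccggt
SDHD: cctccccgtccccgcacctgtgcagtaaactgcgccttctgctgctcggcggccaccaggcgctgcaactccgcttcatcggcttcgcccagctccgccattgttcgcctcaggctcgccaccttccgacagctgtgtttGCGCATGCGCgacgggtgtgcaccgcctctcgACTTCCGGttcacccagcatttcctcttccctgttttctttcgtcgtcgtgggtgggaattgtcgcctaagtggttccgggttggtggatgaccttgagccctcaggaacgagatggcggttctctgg
SDHA: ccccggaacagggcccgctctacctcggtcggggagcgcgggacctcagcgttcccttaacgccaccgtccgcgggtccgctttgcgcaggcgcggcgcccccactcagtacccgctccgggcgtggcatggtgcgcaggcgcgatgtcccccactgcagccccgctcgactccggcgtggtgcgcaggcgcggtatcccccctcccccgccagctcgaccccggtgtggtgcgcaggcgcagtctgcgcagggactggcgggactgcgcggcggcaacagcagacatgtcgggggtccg

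The SDHB window held 1 NRF1 core and 1 YY1 core. The SDHD window held 1 ETS core and 1 stretch that matches the NRF1 core on both strands, as 2 overlapping matches. The SDHA window held no exact match to any of the 3. Only exact matches were searched for, so near matches in any window, SDHA included, are neither marked nor counted. Promoter windows were matched for 62 of the 77 subunit genes. The NRF1 core was in 21% of them, against 3.27% of the 27305 promoters of the same length, the ETS core in 14.5% against 4.44%, and the YY1 core in 17.7% against 3.03%. At least 1 of the 3 was in 43.5% of the subunit promoters, against 9.94% of all promoters. Of the matched subunits that fell in both lines, 13 of 24 (54.2%) held at least 1, and of those that passed in neither line, 4 of 15 (26.7%). The motifs and this split were chosen after values were seen, the shares were not tested, and a match is not a bound site.

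Complex I had 36 tested members. In the edited line 22 fell (61.1%, against 30.7% of all tested genes) and 1 rose, and in wild type 15 fell (41.7%, against 30.9%) and 2 rose. Among genes with a mean of at least 1000, 40.9% fell in the edited line and 43.9% in wild type, so the wild type share is near that background. By module, 7 of 10 genes of the NADH-oxidizing module fell in the edited line (70%) and 5 in wild type (50%). Of the 5 quinone-reducing genes, 4 fell in the edited line (80%) and 2 in wild type (40%). Of the 21 genes of the membrane arm and its junction 11 (52.4%) and 8 (38.1%) fell.

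NDUFS4, an accessory subunit of the NADH-oxidizing module, had 4240, 3397 and 4197 normalized counts in the edited line with TGFβ, against 8022, 8427 and 8107 in the edited line untreated. The wild type libraries had 4559, 4041 and 3348 with TGFβ, against 7173, 6880 and 6629 untreated. No treated library reached an untreated one in either line. The log2 fold changes were -1.06 ± 0.10 in the edited line (adjusted p = 9.53e-08) and -0.80 ± 0.10 in wild type (adjusted p = 2.74e-06).

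NDUFS1, the large iron-sulfur subunit of the same module, had 12101, 11573 and 12108 in the edited line with TGFβ, against 20057, 19890 and 20422 in the edited line untreated, and 11152, 11690 and 11863 in wild type with TGFβ, against 18943, 19182 and 18103 in wild type untreated. Treated and untreated libraries did not overlap in either line. The log2 fold changes were -0.75 ± 0.05 in the edited line (adjusted p = 1.73e-09) and -0.70 ± 0.05 in wild type (adjusted p = 5.43e-09). NDUFV1, which carries the flavin that accepts electrons from NADH, fell by less, at -0.61 ± 0.07 in the edited line and -0.38 ± 0.07 in wild type.

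NDUFA5, an accessory subunit of the quinone-reducing module, fell to 5656, 6556 and 6595 in the edited line with TGFβ, against 8569, 9139 and 11756 in the edited line untreated. It fell to 5826, 5320 and 4670 in wild type with TGFβ, against 12239, 8927 and 10956 in wild type untreated. The log2 fold changes were -0.64 ± 0.12 in the edited line and -1.02 ± 0.12 in wild type, and their difference did not pass (0.38 ± 0.17, adjusted p = 0.159). NDUFA9, at the junction of the arms, fell by 0.86 ± 0.10 and 0.84 ± 0.10 on the log2 scale in the edited line and in wild type, and NDUFC1, a small membrane-arm subunit, by 0.97 ± 0.09 and 0.71 ± 0.09.

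NDUFS5, an accessory membrane-arm subunit, rose in both lines. It had 9512, 7809 and 9074 in the edited line with TGFβ, against 7576, 7215 and 7134 in the edited line untreated, which do not overlap. In wild type it had 11838, 9506 and 8618 with TGFβ, against 9036, 7591 and 7786 untreated, which overlap. The log2 fold changes were 0.26 ± 0.10 (adjusted p = 0.035) in the edited line and 0.29 ± 0.10 (adjusted p = 0.0234) in wild type. The call in the edited line was lost with equal totals, TMM factors, no filter or the GC trend removed, and without replicate 1 or 3 of its treated or replicate 2 or 3 of its untreated libraries. The call in wild type was lost with only the compared groups fitted, and without replicate 1 of its treated or replicate 2 or 3 of its untreated libraries.

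NDUFV2, the iron-sulfur partner of NDUFV1, had the most negative log2 fold change of complex I in the edited line, at low values. It had 34.5, 81.8 and 58 in the edited line with TGFβ, against 164, 148 and 190 in the edited line untreated, and 40.7, 59.4 and 64.7 in wild type with TGFβ, against 74.8, 92.3 and 70.9 in wild type untreated. The fall passed in the edited line (-1.59 ± 0.28, adjusted p = 0.000125) and not in wild type (-0.54 ± 0.28, adjusted p = 0.11). Of its transcript, 82.9% shares exons with another gene on the same strand. At least 40% was so shared for 7 tested members (NDUFV2, NDUFA7, NDUFB8, NDUFA11, NDUFA13, ATP5O and ATP5J2), and 5 of the 10 tested members with a mean under 400 are among them. Values of these members are therefore uncertain.

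In complex III, 6 of 9 members fell in the edited line (66.7%, against 30.7% of all tested genes) and 3 in wild type (33.3%, near the 30.9% of all tested genes), and none rose. The Rieske iron-sulfur protein UQCRFS1 (GRCh38 chromosome 19, 29205321 to 29213541, minus strand) had 12574, 10674 and 11841 in the edited line with TGFβ, against 19371, 19820 and 19547 in the edited line untreated. Wild type had 13245, 11515 and 10204 with TGFβ, against 21582, 20297 and 21100 untreated. All treated libraries lay below all untreated ones, with log2 fold changes of -0.75 ± 0.08 in the edited line (adjusted p = 5.8e-07) and -0.86 ± 0.08 in wild type (adjusted p = 1.22e-07).

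The core proteins of complex III differed in size of response. UQCRC2 fell by 0.56 ± 0.07 on the log2 scale in the edited line and 0.59 ± 0.07 in wild type, and UQCRC1 by 0.25 ± 0.08 in the edited line (adjusted p = 0.0185), where the wild type value of -0.12 ± 0.08 did not pass. UQCR10, a small accessory subunit, fell by 0.64 ± 0.11 and 0.59 ± 0.11. UQCRB, which lies near the quinone site, stood at 0.09 ± 0.10 and 0.04 ± 0.10 and passed in neither line. UQCRHL is a gene copy of UQCRH, so reads could be shared between them.

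Cytochrome genes outside the member rule also fell. CYCS, cytochrome c itself, had 23253, 21658 and 24677 in the edited line with TGFβ, against 72714, 80702 and 87343 in the edited line untreated. The log2 fold change was -1.79 ± 0.11 in the edited line (adjusted p = 3.51e-10) and -1.45 ± 0.11 in wild type (adjusted p = 5.35e-09). CYC1, the cytochrome c1 subunit of complex III, fell by 1.18 ± 0.09 in the edited line and 0.86 ± 0.09 in wild type. NDUFAB1, the acyl carrier protein that is also part of complex I, had log2 fold changes of -1.01 ± 0.10 in the edited line (adjusted p = 3.03e-07) and -0.79 ± 0.10 in wild type (adjusted p = 5.66e-06). COX7A2L, a factor of supercomplex assembly, did not pass, at -0.14 ± 0.07 in the edited line (adjusted p = 0.109) and -0.13 ± 0.07 in wild type (adjusted p = 0.13).

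Complex IV had 13 tested members. In the edited line 8 fell (61.5%, against 30.7% of all tested genes), and in wild type 5 fell (38.5%, against 30.9%) and 1 rose. Among genes with a mean of at least 1000, 40.9% fell in the edited line and 43.9% in wild type, so the wild type share is near background. NDUFA4 had 10734, 8484 and 9330 in the edited line with TGFβ, against 15005, 14282 and 13130 in the edited line untreated. It had 11390, 9334 and 8178 in wild type with TGFβ, against 13618, 12148 and 12162 in wild type untreated. Treated libraries lay below untreated ones in both lines, with log2 fold changes of -0.58 ± 0.11 in the edited line and -0.40 ± 0.11 in wild type (adjusted p = 0.000166 and 0.00345).

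Relatives of NDUFA4 outside the member rule moved both ways. C15orf48, whose product can take the place of NDUFA4 in complex IV, rose to 2970, 2634 and 2942 in the edited line with TGFβ, against 239, 248 and 254 in the edited line untreated. In wild type it rose to 7056, 6222 and 5253 with TGFβ, against 348, 298 and 267 untreated. The log2 fold changes were 3.52 ± 0.11 in the edited line (adjusted p = 1.24e-13) and 4.34 ± 0.11 in wild type (adjusted p = 1.01e-14), and the rise was smaller in the edited line by -0.82 ± 0.16 (adjusted p = 0.00215). NDUFA4L2, the other paralogue, fell by 1.58 ± 0.20 in the edited line and 0.78 ± 0.20 in wild type, and its difference between the lines did not pass (adjusted p = 0.0605).

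COX4I1, the widely expressed form of its subunit, stood at -0.22 ± 0.09 in the edited line (adjusted p = 0.0482) and -0.07 ± 0.09 in wild type (adjusted p = 0.55), and COX6A1, the non-muscle form of its own, at -0.24 ± 0.10 (adjusted p = 0.0497) and -0.10 ± 0.10 (adjusted p = 0.445). Both calls in the edited line lay at the threshold and were lost under 12 alternatives each. COX7A2 fell by 0.56 ± 0.09 in the edited line and 0.29 ± 0.09 in wild type, and COX8A by 0.49 ± 0.10 and 0.37 ± 0.10, and the wild type call of COX7A2 was lost under 4 alternatives. COX7C and COX6B1 did not pass in either line. The muscle isoform COX7A1 was at most 15.1 in any library.

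In complex V the catalytic β subunit ATP5B (GRCh38 chromosome 12, 56638175 to 56646068, minus strand) had 66187, 57053 and 63514 in the edited line with TGFβ, against 111230, 112531 and 110033 in the edited line untreated. The wild type libraries had 68720, 62282 and 55250 with TGFβ, against 102809, 95918 and 96085 untreated. No libraries overlapped within a line, and the log2 fold changes were -0.84 ± 0.08 in the edited line (adjusted p = 1.02e-07) and -0.67 ± 0.08 in wild type (adjusted p = 1.67e-06). Its partner in the catalytic head, ATP5A1, stood at 0.01 ± 0.08 in the edited line (adjusted p = 0.879) and fell in wild type by 0.20 ± 0.08 (adjusted p = 0.0327). The difference between the lines for ATP5A1 did not pass (adjusted p = 0.2).

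Of 17 complex V members, 10 fell in each line (58.8%) and none rose. Among all tested genes 30.7% fell in the edited line and 30.9% in wild type, and among those with a mean of at least 1000, 40.9% and 43.9%. The 17 include ATP5S and ATP5SL, which are not subunits. ATP5S fell in both lines, and ATP5SL was called lower in wild type and did not pass in the edited line. The rotor ring is encoded by 3 genes with near-identical mature products, named ATP5G1 to ATP5G3 in the table. ATP5G1 fell by 0.66 ± 0.10 in the edited line and 0.32 ± 0.10 in wild type, ATP5G2 by 0.46 ± 0.09 and 0.34 ± 0.09, and ATP5G3 did not pass (-0.22 ± 0.09 in each line, adjusted p = 0.0568 in the edited line and 0.0576 in wild type). It passed under 11 alternatives in the edited line and 10 in wild type, and the wild type call of ATP5G1 was lost under 3. ATPIF1, the inhibitor of ATP synthase and no member by rule, fell by 0.66 ± 0.09 in the edited line and 0.59 ± 0.09 in wild type.

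Summed over its subunits, each complex was lower with TGFβ in the edited line. Complex I summed to 150067, 133126 and 143647 in the edited line with TGFβ, against 188484, 189407 and 186022 in the edited line untreated. In wild type it summed to 164415, 143642 and 128314 with TGFβ, against 189170, 174372 and 173575 untreated. The change of the mean was -24.3% in the edited line and -18.8% in wild type, and it was -27.2% and -23.9% for complex V, of which ATP5B is the largest part (-14.3% in the edited line and -15.3% in wild type without it).

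Complex IV was the exception in wild type, with 127165, 103906 and 90290 under TGFβ against 125233, 111353 and 110874 untreated, which overlap (exact permutation p = 0.5, two-sided). For the other complexes in both lines, and for complex IV in the edited line, the groups did not overlap and the exact p was 0.1, the smallest that 3 against 3 libraries allow. Without ATP5B the complex V sums of wild type overlapped (exact p = 0.2). Replicate 1 of wild type with TGFβ was the highest and replicate 3 the lowest of their group for every complex. Their cytosolic ribosomal protein sums were 5135550 and 3705860, which also were the highest and lowest of that group, and the part of this spread in the results was not tested. Leaving out replicate 3 gave 26 members lower in wild type and leaving out replicate 1 gave 48.

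**Figure D3:**
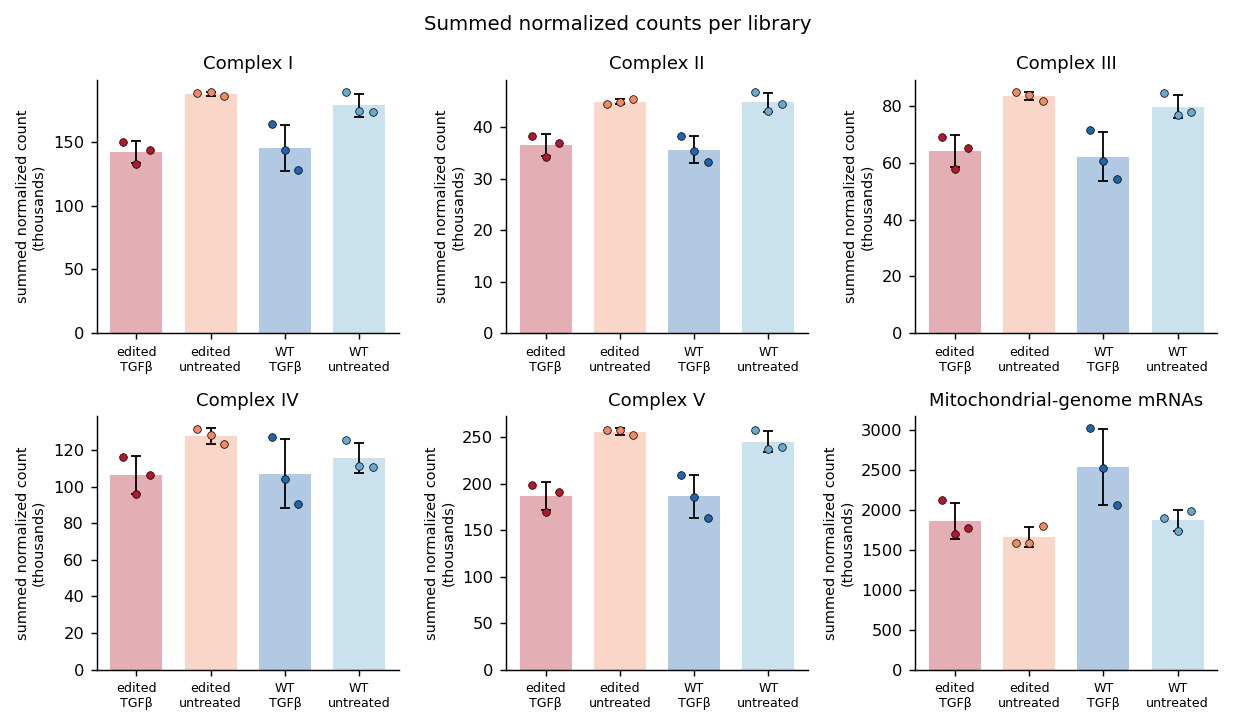
Summed normalized counts (axis unit 1000) of the tested subunit genes of each complex and of the 13 mRNAs of the mitochondrial genome in each library (points), with group means (bars) and SD (lines, n = 3). Nuclear-encoded sums are lower with TGFβ, except that treated and untreated libraries of complex IV overlap in wild type. Mitochondrially encoded sums are not lower, and the treated wild type libraries spread most.

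The mRNAs of the mitochondrial genome, which encode the remaining subunits, did not fall. Of 13, 4 rose in the edited line (30.8%), a share near the 32.1% of all tested genes, and 11 rose in wild type (84.6%, against 30.8% of all tested genes). By limma none was called lower in either line. MT-ATP8, a small subunit of complex V, had a log2 fold change of 0.50 ± 0.09 in the edited line (adjusted p = 0.000172) and 0.85 ± 0.09 in wild type (adjusted p = 6.43e-07). The mitochondrially encoded sum per unit of the nuclear-encoded sum was 3.7, 3.45 and 3.27 in the edited line with TGFβ, against 2.24, 2.26 and 2.62 in the edited line untreated. It was 4.94, 4.77 and 4.39 in wild type with TGFβ, against 2.69, 2.69 and 3.07 in wild type untreated. Treated libraries lay above untreated ones in both lines (exact permutation p = 0.1, the smallest possible). This ratio also carries the fall of the nuclear-encoded sum. The mitochondrially encoded sum alone changed by 12.3% in the edited line, where the groups overlapped (exact permutation p = 0.3). In wild type it changed by 35.6% without overlap (exact permutation p = 0.1).

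Genes that build and serve the chain fell as well, against 30.7% of all tested genes lower in the edited line and 30.9% in wild type. Assembly factors fell in 14 of 19 for complex I in each line. For complex II, 4 of 4 fell in the edited line and 3 of 4 in wild type. In each line 7 of 9 fell for complex III, 17 of 26 for complex IV and 3 of 4 for complex V. The complex I list includes the member ATP5SL and the complex V list the member ATP5S, which are also counted above. NDUFAF7 and SCO2 rose in the edited line and PET100 in wild type. COA6, a copper-handling factor of complex IV, stood at -1.45 ± 0.09 in the edited line and -1.44 ± 0.09 in wild type, COX10, which makes its heme, at -0.96 ± 0.07 and -1.15 ± 0.07, and the complex I factor NDUFAF4 at -1.04 ± 0.08 and -0.96 ± 0.08. Mitochondrial ribosomal proteins, which translate the mitochondrially encoded subunits, fell in 64 of 77 genes and rose in 2 in the edited line, and fell in 62 and rose in 3 in wild type, with MRPS18B at -1.40 ± 0.08 and -1.13 ± 0.08. These lists are described by their counts, and their shares were not tested against those of the subunits.

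Pyruvate and TCA cycle enzymes fell in 12 of 16 genes in each line (75%) and rose in 3 in the edited line and 1 in wild type. Among all tested genes 30.7% fell in the edited line and 30.9% in wild type. FH, fumarate hydratase, had a log2 fold change of -0.70 ± 0.08 in the edited line (adjusted p = 7.11e-07) and -0.72 ± 0.08 in wild type (adjusted p = 5.17e-07). Of 15 tested regulators of mitochondrial biogenesis, 11 fell (73.3%) and 2 rose in the edited line, and 9 fell (60%) and 3 rose in wild type. TFB2M, a mitochondrial transcription factor, fell by 0.93 ± 0.08 in the edited line and 0.86 ± 0.08 in wild type, and TFAM, which packages and transcribes mitochondrial DNA, by 0.53 ± 0.05 and 0.72 ± 0.05.

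PPARGC1A, the coactivator PGC-1α, had 2502, 2642 and 2723 in the edited line with TGFβ, against 4082, 3702 and 4163 in the edited line untreated. In wild type it had 1475, 1592 and 1891 with TGFβ, against 3833, 3834 and 3638 untreated. The log2 fold change was -0.60 ± 0.08 in the edited line and -1.20 ± 0.08 in wild type, and the fall was smaller in the edited line (difference 0.59 ± 0.12, adjusted p = 0.00248). Cytosolic ribosomal proteins, given for comparison, rose in 9 (11.1%) and fell in 7 (8.64%) of 81 genes in the edited line. In wild type they rose in 11 (13.6%) and fell in 2 (2.47%). These shares lie below those of all tested genes, 32.1% higher and 30.7% lower in the edited line and 30.8% and 30.9% in wild type.

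**Figure D4:**
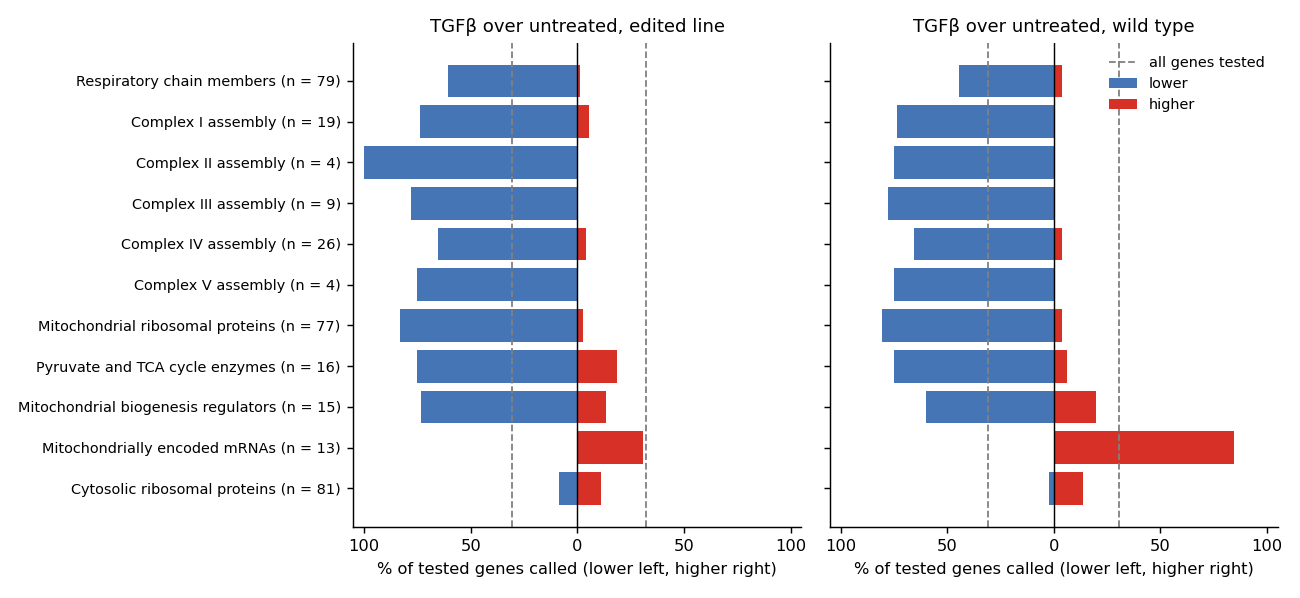
Percent of tested genes of each list called lower (blue, left) or higher (red, right) with TGFβ, in the edited line (left panel) and wild type (right panel), with dashed lines for all tested genes. Respiratory chain members fell in 60.8% and 44.3%, mitochondrial ribosomal proteins in 83.1% and 80.5%, and no mitochondrially encoded mRNA was called lower.

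Without TGFβ, the edited line differed from wild type in few members. Of 79, 9 were higher (11.4%) and 1 lower (1.27%), against 14.3% higher and 17.5% lower among all tested genes, with a member median of 0.11. The higher members were NDUFB7, NDUFA8, NDUFV1, NDUFB9, NDUFV2, COX5B, COX6B2, ATP5G2 and ATP5S. Calls were lost under 10 alternatives for COX6B2, 8 for ATP5G2 and 5 for COX5B. NDUFB9, an accessory subunit at the end of the membrane arm, had 9184, 9513 and 8440 in the untreated edited line, against 7284, 6827 and 6191 in untreated wild type, which do not overlap (log2 fold change 0.42 ± 0.10, adjusted p = 0.00323). NDUFS3, a core quinone-module subunit, was lower, with 3574, 3645 and 3584 in the untreated edited line, against 4483, 4068 and 4164 in untreated wild type (-0.23 ± 0.08, adjusted p = 0.0389). The NDUFS3 call was lost under 9 alternatives, among them leaving out any 1 untreated library of the edited line. Leaving out 1 library gave 4 to 17 higher members.

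With TGFβ, the lines differed in 1 member, NDUFA11, an accessory subunit of the membrane arm. It had 180, 243 and 196 in the edited line with TGFβ, against 323, 296 and 302 in wild type with TGFβ (log2 fold change -0.58 ± 0.15, adjusted p = 0.018), and 67% of its transcript shares exons with another gene. The NDUFA11 call was lost under 6 alternatives, among them fitting only the compared groups. Of the members 1.27% were called lower and 0 higher, against 4.32% lower and 7.38% higher among all tested genes. By limma 1 member was higher at an unadjusted p under 0.05, and edgeR and DESeq2 on recovered reads also called 0 higher. The count of lower members was 12 without replicate 3 of wild type with TGFβ. Of the mitochondrially encoded mRNAs, 10 of 13 were lower in the edited line with TGFβ.

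The TGFβ response itself differed between the lines for 4 of 79 members (5.06%), all more negative in the edited line, against 6.02% more negative and 10.6% more positive among all tested genes. The share is near that background. By limma 2 members were more positive at an unadjusted p under 0.05, and limma, edgeR and DESeq2 each called 0 of them. For NDUFB9 and ATP5S, which is a coupling factor-like protein and not a subunit, both lines fell and the fall was larger in the edited line. For COX6B2, a testis isoform of a complex IV subunit, and NDUFA11, wild type rose while the edited line did not pass. Without replicate 3 of wild type with TGFβ the count was 19.

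COX6B2 had 37.6, 34.5 and 27.3 in the edited line with TGFβ, against 55.7, 31.1 and 67 in the edited line untreated, which overlap. Wild type had 76.9, 48.9 and 53.8 with TGFβ, against 32.9, 29.7 and 11.8 untreated, which do not. These are low counts. ATP5S had 1408, 1458 and 1485 in the edited line with TGFβ, against 2354, 2467 and 2364 in the edited line untreated, and 1439, 1339 and 1406 in wild type with TGFβ, against 1786, 1952 and 1821 in wild type untreated.

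**Figure D5:**
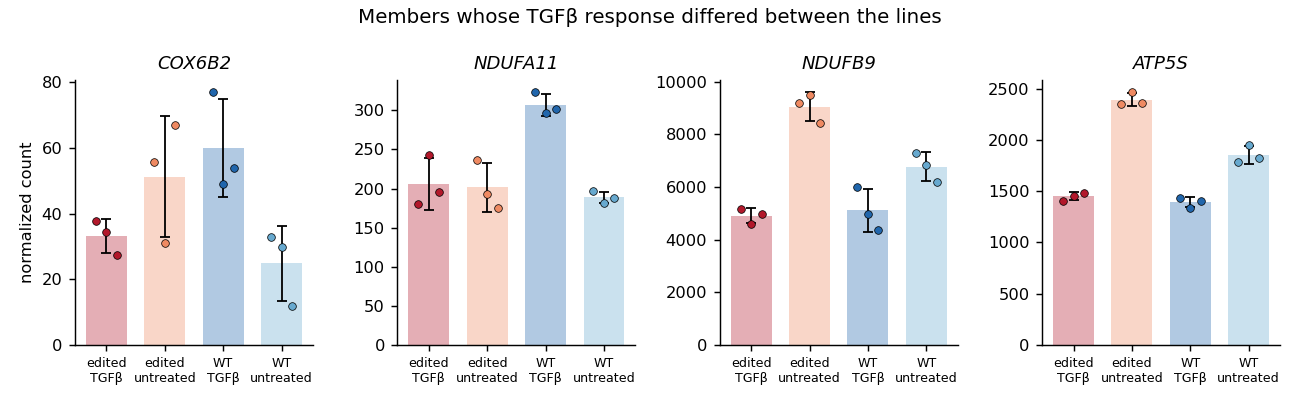
Normalized counts in each library (points), with group means (bars) and SD (lines, n = 3), of the members whose TGFβ response differed between the lines, in the edited line with TGFβ, the edited line untreated, wild type with TGFβ and wild type untreated. NDUFB9 and ATP5S are lower with TGFβ in both lines, with their highest libraries in the untreated edited line, and COX6B2 and NDUFA11 passed with TGFβ in wild type and not in the edited line.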

How the data were processed

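RNA-seq was measured in 12 libraries. For every gene the authors deposited a normalized count, a signal scaled between libraries. The tools named per the submitters' processing notes are DESeq2, featureCounts, HISAT2 and StringTie, and the build is GRCh38.p14. Tool versions and roles and any use of strand are not stated there. Values are whole multiples of a constant step in each library, and dividing by it recovered whole reads. For replicate 1 of untreated wild type the step lies too near 1 for an automatic check of this, and its recovered reads enter only the count-based alternatives.

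Values of at least 10 in at least 3 libraries were required, and log2(value + 1) was fitted with limma 3.58.1 (trend) in R 4.3.3 over 4 group means, with 5 two-sided comparisons adjusted by Benjamini-Hochberg over 20456 genes at a threshold of 0.05. Errors are SE for log2 fold changes. A fold change on this scale understates the change of low genes. The fit was also run on simulated data in which few genes changed and libraries varied independently. The measured data differ in this, so that run is no support for the calls above. Alternatives covered pseudocounts of 0.5 and 10, filters, scalings, edgeR 4.0.16 and DESeq2 1.42.0 on recovered reads, a replicate block, length and GC trends and leaving out each library. Leaving out replicate 1 of both treated groups was added after seeing the data. Gene positions came from GENCODE 29.

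The gene family and the lists were chosen with earlier results of these data known; the members follow from the symbol pattern alone. By rule, named genes were up to 2 called members per complex, direction and comparison with the largest change, isoform sets and related genes with any result, and up to 2 called members per list. Where the rule names ATP5MC1 to ATP5MC3 and ATP5IF1, the table spells ATP5G1 to ATP5G3 and ATPIF1. The other members named were chosen after their values were seen. Some named genes are not reported here.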

Additional observations from a re-analysis of the deposited data

Results flagged for a closer look

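The TGFβ response differed between the lines by the interaction test for 4 members, listed with the difference in log2 fold change (edited line minus wild type). COX6B2 was at -1.89 ± 0.54 (adjusted p = 0.0256), NDUFA11 at -0.67 ± 0.21 (adjusted p = 0.0412), NDUFB9 at -0.47 ± 0.14 (adjusted p = 0.0268) and ATP5S at -0.31 ± 0.09 (adjusted p = 0.0276, limma). Each kept its sign under all 25 alternatives, but the call was lost under 14 of them for NDUFA11, 6 each for COX6B2 and NDUFB9, and 5 for ATP5S.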

How the results depend on the processing

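The member counts called lower with TGFβ stayed within 1.5 times of 48 in the edited line and 35 in wild type under every alternative run, the one added after seeing the data included (leaving out 1 library gave 38 to 51 in the edited line and 25 to 48 in wild type), and single-gene values changed sign 19 times, no longer passed 117 times and newly passed 42 times, against 2702 without a change of direction or call. Quantile normalization moved the median of all genes by -0.108 (log2) in the edited line. After removal of group means, libraries of different groups correlated at -0.031 to 0.129 where same-numbered and -0.147 to 0.152 where not. The labels do not say whether same-numbered libraries were run together, and a shared batch was not tested. With the replicate block 51 members were lower in the edited line and 37 in wild type. The cause of the changes listed here was not tested.

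Members higher with TGFβ in the edited line, 1, became 0 with no filter, equal totals, TMM factors or the GC trend removed, 3 with the replicate block or with only the compared groups, 5 with the length trend removed, and 0 to 2 leaving out 1 library. In wild type, 3 became 5 with quantile normalization, 6 with the block, 7 and 8 with the length and GC trends removed, and 2 to 6 leaving out 1 library. Without TGFβ, 9 higher became 15 with equal totals, 14 with TMM factors, edgeR or the block, 17 with only the compared groups or without replicate 1 of both treated groups (added after seeing the data), and 4 to 17 leaving out 1 library. The 1 lower became 0 with no filter, 2 with equal totals, 3 with a filter of 50, DESeq2 or the GC trend removed, 6 with the block, only the compared groups or without replicate 1 of both treated groups, 8 once the length trend was removed, and 0 to 5 leaving out 1 library. With TGFβ, genes called between the lines, 2394, became 1183 with only the compared groups and 1387 to 3829 leaving out 1 library. Members higher, 0, became 2 with the length trend removed and 0 to 3 leaving out 1 library, and the 1 lower became 2 with the block or the length trend removed, 0 with only the compared groups or without replicate 1 of both treated groups, and 0 to 12 leaving out 1 library. For the interaction, 0 positive became 1 with the length or GC trend removed or without replicate 1 of both treated groups and 0 to 2 leaving out 1 library, and 4 negative became 2 with no filter, 5 with the block, 1 without replicate 1 of both treated groups and 0 to 19 leaving out 1 library. Without replicate 1 of both treated groups 54 members were lower in the edited line and 51 in wild type.

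Signs changed for genes that did not pass in the main fit. Whether the values of changed sign passed under their alternative is not given here. SDHA in the edited line became -0.0333 with equal totals and -0.0352 with the GC trend removed. SDHC in the edited line became -0.0708 with equal totals, -0.0323 with TMM factors, -0.0192 with quantile normalization, -0.0319 with edgeR, -0.165 with the length trend removed, -0.0335 to 0.0334 leaving out 1 library and -0.0335 without replicate 1 of both treated groups, and SDHC in wild type -0.0857 once the length trend was removed. In wild type COX4I1 became 0.00108 with the length trend removed and -0.178 to 0.0431 leaving out 1 library, COX6A1 -0.237 to 0.0125 leaving out 1 library, and COX7A1 0.0669 with a pseudocount of 10, 0.308 with edgeR, 0.322 with DESeq2 and -0.775 to 0.746 leaving out 1 library.

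Each group has 3 libraries, which limits precision, and low values such as those of COX6B2, COX7A1 and NDUFV2 carry large counting error. No source used here says whether counting used strand, and values of overlapping genes are uncertain.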
